A study of Mus musculus with 16 samples.

Results

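The 9 chemokine ligands described here are Cxcl1, Cxcl2, Cxcl10, Ccl1, Ccl3, Ccl4, Ccl5, Ccl22 and Xcl1, found by gene symbol among the 19195 named genes of the deposited expression table. All 9 were present, and 8 of them reached the level needed for a test. They were read in 16 RNA sequencing libraries of regulatory T cells (Tregs), each made from about 100 cells. The Tregs came from 8-week-old Foxp3-GFP mice, whose GFP reports the Treg transcription factor Foxp3, 7 days after myocardial infarction (MI). The source was either the injured heart or the mediastinal lymph nodes (MLN) that drain it, and the cells were sorted by whether they carried CCR8 on their surface. Each of the 4 combinations of tissue and sort (CCR8+ and CCR8- Tregs of heart and of MLN) had 4 libraries. All 4 groups carried the reporter and had the infarction, and no uninjured group was used here. It is not stated whether each library was made from its own mouse, so the p values measure the spread between libraries, which may be technical. Levels are given as log2(FPKM + 1), where FPKM is fragments scaled for transcript length and library size. A difference is the first group's mean minus the second's on that scale, with its standard error (SE) and, where a group is at or near 0, it depends on the added 1. A gene was called higher or lower when limma's two-sided p, adjusted by Benjamini-Hochberg, was under 0.05 over all 10369 genes tested.

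Chemokines are small secreted proteins that bind receptors on leukocytes and draw these cells along a gradient. Cxcl1 and Cxcl2 bind Cxcr2 and are best known for recruiting neutrophils, and their genes respond quickly to NF-kB, the transcription factor of inflammatory signalling. Cxcl10 is induced by interferons and binds Cxcr3 on effector T cells and natural killer (NK) cells. Ccl3, Ccl4 and Ccl5 are made by activated T cells, NK cells and macrophages and attract T cells and monocytes. Ccl1 is a ligand of Ccr8, the receptor used for the sort, and Ccl22 binds Ccr4, a receptor common on Tregs. Xcl1 is released by activated T and NK cells and binds Xcr1 on cross-presenting dendritic cells.

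Cxcl1 (chromosome 5, 90891241 to 90893115, plus strand) and Cxcl2 (90903871 to 90905938, plus strand) lie 10.8 kb apart in GENCODE M21 on GRCm38. Cxcl10 lies on the same chromosome (92346638 to 92348889, minus strand). Ccl3 (chromosome 11, 83647844 to 83649355, minus strand) and Ccl4 (83662584 to 83664683, plus strand) lie 13.2 kb apart, and Ccl5 (83525778 to 83530518, minus strand) is 117 kb from Ccl3. Ccl1 has its GENCODE entry on the same chromosome from 82176657 to 82305690 on the minus strand, which is much longer than its RefSeq entry of 3147 bases. Ccl22 is on chromosome 8 (94745590 to 94751699, plus strand) and Xcl1 on chromosome 1 (164931644 to 164935527, minus strand). RefSeq held the 250 bases before the start site for 7 of the 9 ligands, all but Ccl4 and Ccl5 (GRCm38.p6, the build of the files). The promoters of the 4 ligands among these 7 that were called between heart and MLN in the values that follow are shown. That of Ccl1 is shown as well, which was called in no comparison but did not overlap between heart CCR8+ and CCR8- Tregs. The capitals mark matches to an NF-kB type motif, GGGANNTTCC, where N is any base, searched on both strands.
Cxcl1 promoter, chr5:90890995-90891244, plus strand: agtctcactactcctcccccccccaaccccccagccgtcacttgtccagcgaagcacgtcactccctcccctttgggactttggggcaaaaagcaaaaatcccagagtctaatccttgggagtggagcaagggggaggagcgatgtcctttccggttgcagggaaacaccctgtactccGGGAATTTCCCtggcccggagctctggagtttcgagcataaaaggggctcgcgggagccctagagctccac
Cxcl2 promoter, chr5:90903649-90903898, plus strand: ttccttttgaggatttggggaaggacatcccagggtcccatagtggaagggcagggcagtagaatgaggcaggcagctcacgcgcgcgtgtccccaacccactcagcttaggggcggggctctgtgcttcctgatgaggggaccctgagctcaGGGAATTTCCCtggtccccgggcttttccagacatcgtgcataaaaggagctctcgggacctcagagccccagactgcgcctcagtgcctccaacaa
Cxcl10 promoter, chr5:92348890-92349139, minus strand: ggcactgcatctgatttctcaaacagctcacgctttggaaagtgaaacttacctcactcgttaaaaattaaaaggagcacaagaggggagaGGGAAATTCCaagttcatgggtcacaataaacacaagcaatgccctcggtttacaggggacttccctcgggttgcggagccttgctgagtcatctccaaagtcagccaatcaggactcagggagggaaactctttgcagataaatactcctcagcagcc
Ccl1 promoter, chr11:82179813-82180062, minus strand: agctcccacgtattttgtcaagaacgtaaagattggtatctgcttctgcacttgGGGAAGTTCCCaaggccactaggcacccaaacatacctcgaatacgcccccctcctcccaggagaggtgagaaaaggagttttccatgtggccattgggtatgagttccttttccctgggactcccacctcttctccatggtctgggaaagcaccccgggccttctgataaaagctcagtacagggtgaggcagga
Ccl3 promoter, chr11:83649379-83649628, minus strand: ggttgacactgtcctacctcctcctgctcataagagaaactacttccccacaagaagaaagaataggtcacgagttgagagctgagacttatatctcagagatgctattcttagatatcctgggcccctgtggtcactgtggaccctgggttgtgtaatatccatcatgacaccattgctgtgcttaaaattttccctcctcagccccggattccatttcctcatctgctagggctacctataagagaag

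This motif stood in 4 of the 7 promoters, those of Cxcl1, Cxcl2, Cxcl10 and Ccl1, and in 1.21% of all 32851 promoters of the same length. Cxcl1 and Cxcl2 held the same 10 letters, GGGAATTTCC, starting 71 bases before the start site in Cxcl1 and 97 bases before it in Cxcl2. In these promoters and that of Ccl1 a match on the other strand overlapped the first match, shifted by 1 base, which extends the capitals by that base. Cxcl10 held GGGAAATTCC, starting 159 bases before its start site, and Ccl1 held GGGAAGTTCC, starting 196 bases before it. The Ccl3 window held no match to these letters. An interferon response element type motif, GAAANNGAAA, stood in 2.98% of all promoters and, among the 7, in that of Cxcl10 (GAAAGTGAAA, starting 213 bases before the start site, left in lower case). A match is a description of letters and not a measured binding site.

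Treg and T cell genes were high in every library, which does not measure purity. The mean of 8 Treg identity genes lay between 7.13 and 8.64 and that of 11 general T cell genes between 7.59 and 8.75 in all 16 libraries, and Ccr8 followed the sort in both tissues. Markers of other heart cells were also present in the heart libraries and differed between them. The mean of 12 macrophage and monocyte markers was 2.82, 2.48, 3.80 and 3.67 in heart CCR8- replicates 1 to 4 and 0.36, 5.78, 2.58 and 3.84 in heart CCR8+ replicates 1 to 4. No MLN library exceeded 1.28, and those without CCR8 lay at 0.25 to 0.57. Summed over the 12 genes, FPKM was 4.20 to 2272 in heart CCR8+ and 315 to 909 in heart CCR8-, and reached 148 in MLN CCR8+ (lowest 42.5) and 16.8 in MLN CCR8- (lowest 5.38). Adgre1, C1qa, Fcgr1 and Cd163 were listed at 0 in all MLN CCR8- libraries, Adgre1, Cd14, Mrc1, Fcgr1 and Ms4a7 in all MLN CCR8+ libraries, and Cd163 in all heart CCR8- libraries. Of the 8 of these markers tested, 6 were called higher in heart CCR8- than in MLN CCR8- and 3 higher in heart CCR8+ than in MLN CCR8+. The mean of 10 fibroblast markers was 2.42 to 3.83 in heart CCR8-, 0.60 to 3.42 in heart CCR8+ and at most 0.44 in any MLN library, with summed FPKM of 69.3 to 323, 14.4 to 229 and at most 6.35. Pdgfra was listed at 0 in all heart libraries. Within MLN the mean of 6 B cell markers was 1.86 to 4.10 in CCR8+ and 0.83 to 2.79 in CCR8- libraries. H2-Aa, of the dendritic cell list, averaged 7.08 and 2.54 in these groups. The part of such cells in the differences within MLN was not tested. In such bulk samples fewer cells of a type cannot be told apart from less RNA per cell. The part of these cells in a ligand's level was not tested beyond the covariates given with each result. The macrophage and fibroblast means did not overlap between heart CCR8- and MLN CCR8-, nor did the fibroblast means between the CCR8+ groups. A tissue difference fitted with such a covariate is thus an extrapolation. Calls over all genes also fell with these covariates, as counted in the closing section. Nothing about source is read from a kept or lost call of any ligand or listed gene. Heart CCR8+ replicate 2 had the highest macrophage mean and heart CCR8- replicate 3 the highest endothelial mean (5.29, against at most 1.49 in any other library), and calls that were lost without these libraries are given with and without them.

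**Figure D1:**
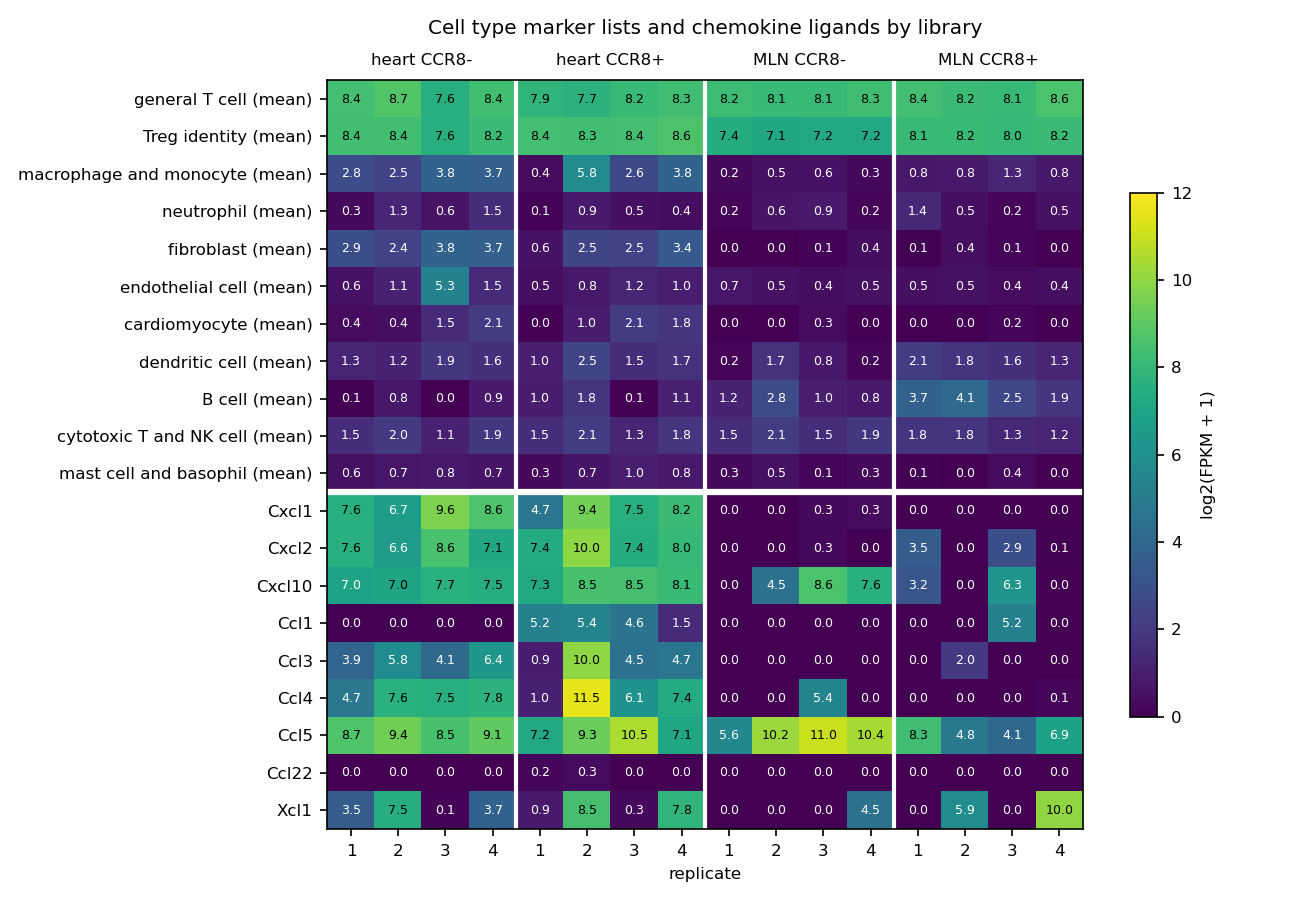
Mean log2(FPKM + 1) of each cell type marker list (upper rows) and log2(FPKM + 1) of each ligand (lower rows) in the 16 libraries (columns, replicates 1 to 4 of each group), with the value printed in each cell. The macrophage row is low in all MLN libraries and in heart CCR8+ replicate 1, whose fibroblast mean is 0.60, against at most 0.44 in MLN. In that heart library Cxcl1, Cxcl2, Cxcl10, Ccl1 and Ccl5 lie between 4.70 and 7.37, and Ccl3, Ccl4, Ccl22 and Xcl1 between 0.19 and 1.05.

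Cxcl1 and Cxcl2 separated the heart from MLN in both CCR8 fractions, with every heart library above every MLN library. Cxcl1 was 7.57, 6.68, 9.61 and 8.64 in heart CCR8- replicates 1 to 4 and 4.70, 9.45, 7.52 and 8.20 in heart CCR8+ replicates 1 to 4. In MLN it was listed at 0 in all 4 CCR8+ libraries and in 2 CCR8- libraries, and stood at 0.31 and 0.34 in the other two. The lowest heart value was that of heart CCR8+ replicate 1, and no MLN library came near it. The difference between heart CCR8+ and MLN CCR8+ was 7.46 (SE 0.75, limma adjusted p = 2.61e-06), and that between heart CCR8- and MLN CCR8- was 7.96 (SE 0.75, limma adjusted p = 6.37e-06). With 0.1 in place of 1 added to FPKM these differences were 10.77 and 10.53.

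Cxcl2 was 7.57, 6.57, 8.57 and 7.14 in heart CCR8- and 7.37, 9.97, 7.43 and 8.04 in heart CCR8+. It was listed at 0 in 3 of 4 MLN CCR8- libraries and at 0.28 in the fourth, while MLN CCR8+ replicates 1 to 4 stood at 3.55, 0, 2.87 and 0.06. The MLN CCR8+ libraries were thus divided, and all of them lay under every heart value. The difference was 6.59 between the CCR8+ groups (SE 0.73, limma adjusted p = 1.09e-05) and 7.39 between the CCR8- groups (SE 0.73, limma adjusted p = 1.06e-05), or 8.21 and 10.36 with 0.1 added. Between CCR8+ and CCR8- heart Tregs the 2 genes overlapped, with differences of -0.66 for Cxcl1 (95% interval -2.23 to 0.90, limma adjusted p = 0.797) and 0.74 for Cxcl2 (95% interval -0.79 to 2.28, limma adjusted p = 0.763). In order of mean level Cxcl2 ran from heart CCR8+ through heart CCR8- and MLN CCR8+ to MLN CCR8-. Within MLN the CCR8+ and CCR8- libraries overlapped through those at or near 0, and the difference of 1.55 (95% interval 0.015 to 3.08, unadjusted p = 0.048) missed the adjusted threshold (limma adjusted p = 0.277). Both genes are close paralogs, so counting could move reads between them.

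Among the 9 ligands, the difference between ligand and macrophage mean spanned the least over the heart libraries for Cxcl1, and more for Cxcl2. This span also grows where a ligand changes more steeply than the markers, so it does not rank how closely ligands followed them. Ccl3 and Ccl4 themselves spanned 9.05 and 10.49 log2 units. Over the 8 heart libraries Cxcl1 spanned 4.91 log2 units and the macrophage mean 5.41, while the difference between them spanned 2.14. For Cxcl2 the ligand spanned 3.40 and its difference from the macrophage mean 3.54. In heart CCR8+ replicate 1 the macrophage markers summed to an FPKM of 4.20, below every MLN library, and the cardiomyocyte, neutrophil, endothelial and dendritic cell means (0.03, 0.13, 0.45 and 1.01) were no higher than the highest MLN library. The fibroblast markers summed to 14.4, above the highest MLN library at 6.35. In that library Cxcl2 was 7.37, and Cxcl1 was 4.70, its lowest heart value. With the macrophage marker mean as a covariate, the heart against MLN difference of Cxcl1 was 5.39 in CCR8+ (limma adjusted p = 2.75e-05) and 5.37 in CCR8- Tregs (limma adjusted p = 0.000134). For Cxcl2 it was 5.40 (limma adjusted p = 0.000991) and 5.90 (limma adjusted p = 0.00791). With the fibroblast mean as a covariate both calls held in CCR8+ Tregs (4.39 and 5.77, limma adjusted p = 0.00677 and 0.0168) and were lost in CCR8- Tregs (3.41 and 6.18, limma adjusted p = 0.462 and 0.302).

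**Figure D2:**
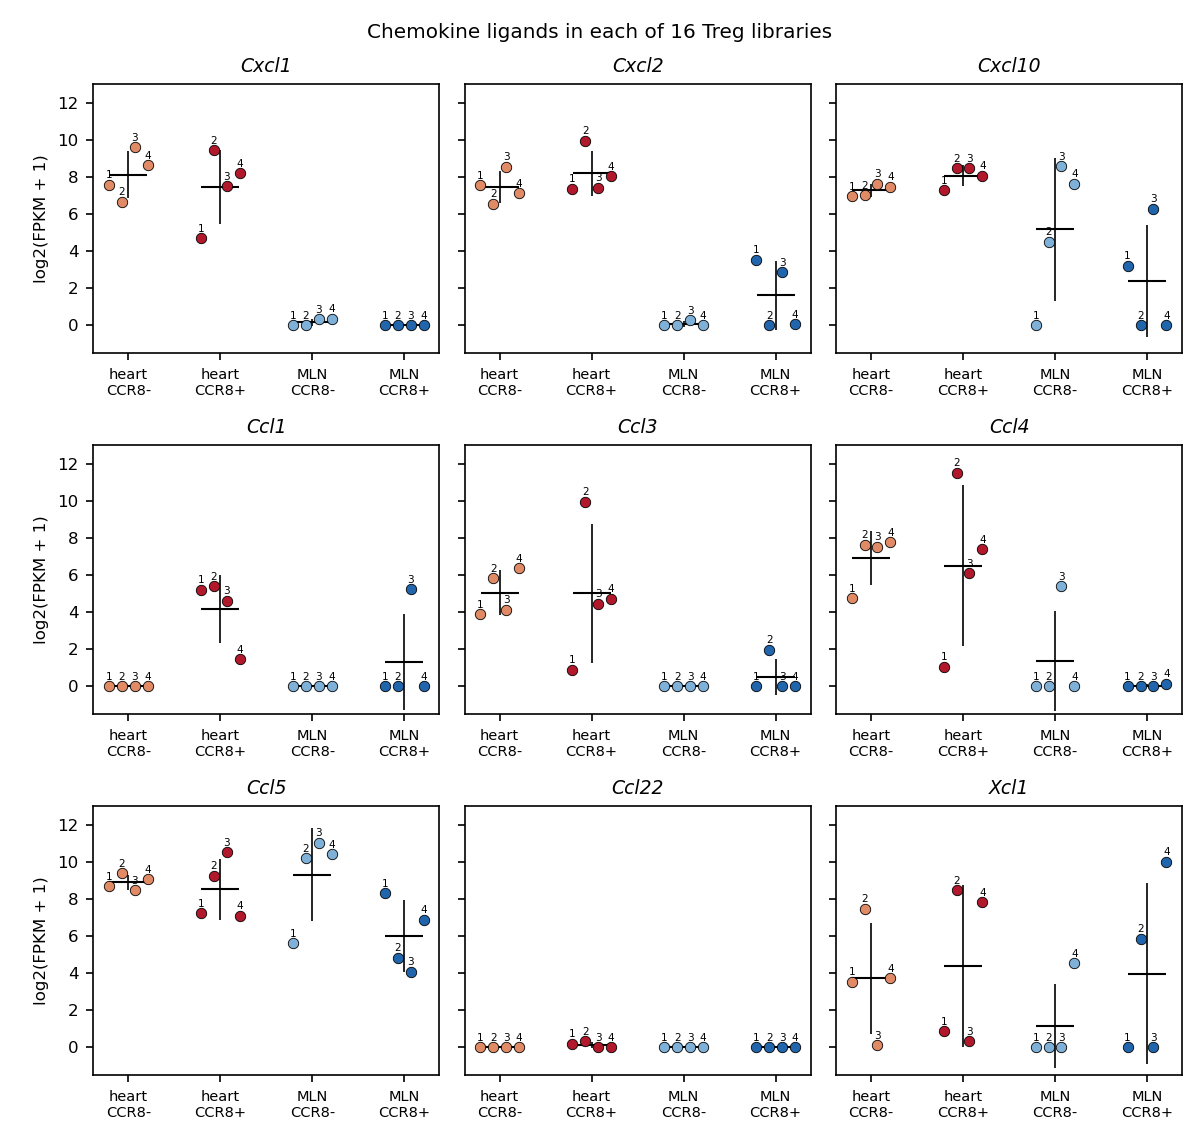
log2(FPKM + 1) of the 9 ligands in each library, by group, with replicate numbers beside the points, the group mean as a horizontal line and 1 SD (n = 4) as a vertical line. Cxcl1 and Cxcl2 lie between 4.70 and 9.97 in all 8 heart libraries and at 3.55 or less in all 8 MLN libraries.

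Cxcl10 was present in every heart library within a narrow range and in only some MLN libraries. It was 6.98, 7.03, 7.65 and 7.48 in heart CCR8- and 7.28, 8.49, 8.48 and 8.07 in heart CCR8+. In MLN it was 0, 4.51, 8.59 and 7.63 in CCR8- replicates 1 to 4 and 3.22, 0, 6.28 and 0 in CCR8+ replicates 1 to 4. All heart CCR8+ libraries thus lay above all MLN CCR8+ libraries, whereas the CCR8- groups overlapped, with MLN CCR8- replicate 3 the highest of all 16 libraries. The difference between heart CCR8+ and MLN CCR8+ was 5.70 (SE 1.41, limma adjusted p = 0.0131), and between heart CCR8- and MLN CCR8- it was 2.10 (SE 1.41, 95% interval -0.85 to 5.05, limma adjusted p = 0.459). These tissue differences were not shown to differ from each other (interaction 3.60, SE 1.99, limma adjusted p = 0.485). The call in CCR8+ Tregs was lost with the macrophage mean (4.84, limma adjusted p = 0.153) or the fibroblast mean (4.65, limma adjusted p = 0.386) as a covariate, without MLN CCR8+ replicate 4 (4.91, limma adjusted p = 0.0548) and with no filter on low values (limma adjusted p = 0.075). In the heart libraries Cxcl10 spanned 1.51 log2 units while the macrophage mean spanned 5.41, and the difference between them spanned 4.21. Within MLN the difference between CCR8+ and CCR8- was -2.81 (SE 1.41, limma adjusted p = 0.312), and without MLN CCR8- replicate 1, the library with Cxcl10 at 0, it was -4.54 (limma adjusted p = 0.034). Cxcl10 shares exon bases with Art3 on the other strand, and it is not stated whether counting used strand. Art3 was listed at 0 in 10 of the 16 libraries, among them all 4 MLN CCR8- libraries.

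Ccl1, the Ccr8 ligand, was detected in all heart CCR8+ libraries and listed at 0 in all heart CCR8- libraries. Its levels in heart CCR8+ replicates 1 to 4 were 5.22, 5.41, 4.63 and 1.47. In MLN it was listed at 0 in every library except CCR8+ replicate 3, where it stood at 5.22. The heart CCR8+ and CCR8- libraries did not overlap, as was so, in this direction, for 3.45% of the genes tested. Ccl1 reached an FPKM of 1 in 4 heart CCR8+ libraries, 0 heart CCR8- libraries and 1 MLN CCR8+ library. It thus entered the test only through the group where it was high, so nothing is read from that share. The difference of 4.18 (SE 0.98) missed the threshold (unadjusted p = 0.000439, limma adjusted p = 0.0821), as did that between heart CCR8+ and MLN CCR8+ (2.87, SE 0.98, limma adjusted p = 0.0708). The first comparison passed without heart CCR8+ replicate 4, its lowest library (5.08, limma adjusted p = 0.0213), and without MLN CCR8+ replicate 3 (4.18, limma adjusted p = 0.0133), which enters only through the shared estimate of the spread. The second passed without the same libraries (3.78 and 4.18, limma adjusted p = 0.0174 and 0.0012), with 0.1 added to FPKM (5.20, limma adjusted p = 0.0484) and with array weights (2.98, limma adjusted p = 0.043). Heart CCR8+ replicate 1, with macrophage markers at the level of MLN, held Ccl1 at 5.22, and heart CCR8- replicates 3 and 4, with macrophage means of 3.80 and 3.67, listed it at 0. With the macrophage mean as a covariate the heart CCR8+ against CCR8- difference was 4.18 (limma adjusted p = 0.0923). Since every heart CCR8- library is at 0, the size of the difference depends on the added 1, and it was 7.33 with 0.1 added (limma adjusted p = 0.0547).

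Ccl3 and Ccl4, neighbouring genes of inflammatory chemokines, were higher in heart than in MLN. Within heart CCR8+ both had the same order of libraries as the macrophage markers, as did Cxcl1 and Cxcl2. Within heart CCR8- Cxcl1 also had the order of these markers, whereas Cxcl2, Ccl3 and Ccl4 did not. Replicate 2 there had the lowest macrophage mean (2.48) and the second highest Ccl3 and Ccl4. Replicate 3 had the highest mean (3.80) and the second lowest Ccl3. Ccl3 was 3.89, 5.84, 4.13 and 6.37 in heart CCR8- and 0.90, 9.95, 4.46 and 4.73 in heart CCR8+. It was listed at 0 in 7 of 8 MLN libraries and stood at 1.98 in MLN CCR8+ replicate 2, above heart CCR8+ replicate 1. The difference was 4.51 between the CCR8+ groups (SE 1.21, limma adjusted p = 0.0217) and 5.06 between the CCR8- groups (SE 1.21, limma adjusted p = 0.0211).

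Ccl4 was 4.75, 7.65, 7.52 and 7.77 in heart CCR8- and 1.05, 11.53, 6.11 and 7.39 in heart CCR8+. In MLN it stood at 5.40 in CCR8- replicate 3 and 0.14 in CCR8+ replicate 4 and was listed at 0 in the other libraries. The CCR8+ groups did not overlap, and the CCR8- groups overlapped through heart replicate 1 and MLN replicate 3. The difference was 6.48 between the CCR8+ groups (SE 1.53, limma adjusted p = 0.00973) and 5.57 between the CCR8- groups (SE 1.53, limma adjusted p = 0.0425). The RefSeq entry of Ccl4 spans that of Ccl3 in part, so reads could be shared between them. Neither gene differed between CCR8+ and CCR8- heart Tregs beyond the spread (-0.05, 95% interval -2.58 to 2.49, for Ccl3 and -0.40, 95% interval -3.60 to 2.80, for Ccl4).

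Heart CCR8+ replicates 1 and 2 stood at the 2 ends of the heart libraries for Ccl3, Ccl4 and the macrophage mean alike. Replicate 1 held Ccl3 at 0.90, Ccl4 at 1.05 and the markers at 0.36, and replicate 2 held 9.95, 11.53 and 5.78. With the macrophage mean as a covariate the differences of Ccl3 were 1.32 in CCR8+ and 1.07 in CCR8- Tregs (limma adjusted p = 0.531 and 0.79), and those of Ccl4 were 2.39 and 0.45 (limma adjusted p = 0.314 and 0.941). With the fibroblast mean all these calls were lost as well, and the Ccl4 difference in CCR8- Tregs turned to -0.83 (limma adjusted p = 0.981). Without heart CCR8+ replicate 2 the Ccl3 difference between the CCR8+ groups was 2.87 (limma adjusted p = 0.0552), and leaving out MLN CCR8+ replicate 1 or 4 gave limma adjusted p = 0.0572 and 0.0603. Between the CCR8- groups the Ccl3 call was lost without heart CCR8- replicate 2 or 4 or MLN CCR8- replicate 4 (limma adjusted p = 0.0567, 0.0571 and 0.0511). The Ccl4 call there was lost without any of 12 libraries (limma adjusted p = 0.0504 to 0.112). Without heart CCR8- replicate 3 and heart CCR8+ replicate 2 together, the Ccl4 differences were 4.81 and 5.37 (limma adjusted p = 0.0434 and 0.0435) and the Ccl3 differences 2.87 and 5.37 (limma adjusted p = 0.0549 and 0.00261). With no filter on low values neither gene was called in the CCR8+ (limma adjusted p = 0.089 for Ccl3 and 0.0583 for Ccl4) or the CCR8- comparison (limma adjusted p = 0.0904 and 0.148). Further calls were lost for Ccl3 between the CCR8+ groups in a fit to these groups alone (limma adjusted p = 0.0638) and for Ccl4 between the CCR8- groups with no variance trend or with array weights (limma adjusted p = 0.0889 and 0.0821). With the endothelial mean as a covariate both were lost between the CCR8- groups (limma adjusted p = 0.0721 for Ccl3 and 0.181 for Ccl4).

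**Figure D3:**
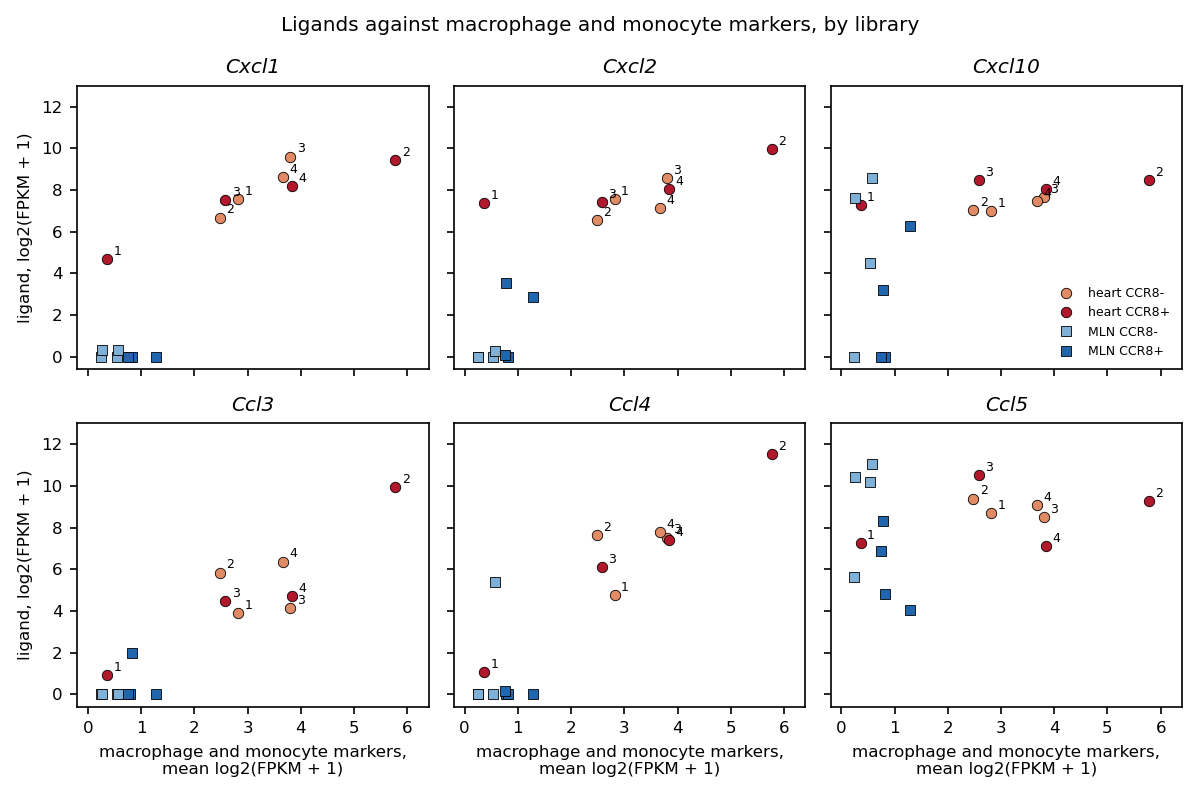
log2(FPKM + 1) of 6 ligands (vertical axis) against the mean log2(FPKM + 1) of the 12 macrophage and monocyte markers (horizontal axis), with a point for each library and replicate numbers beside the heart libraries (circles). Ccl3 and Ccl4 lie low in heart CCR8+ replicate 1 (0.90 and 1.05) and high in replicate 2 (9.95 and 11.53). Cxcl1 lies at 4.70 and 9.45 in these libraries, and Cxcl2, Cxcl10 and Ccl5 lie above 7 in both.

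Ccl5 was the ligand found in every library of both tissues. Replicates 1 to 4 stood at 8.70, 9.40, 8.49 and 9.07 in heart CCR8- and at 7.25, 9.26, 10.52 and 7.11 in heart CCR8+. The corresponding values for MLN were 5.61, 10.21, 11.03 and 10.43 for CCR8- and 8.33, 4.84, 4.07 and 6.87 for CCR8+ libraries. The MLN CCR8+ libraries were mostly the lowest, and they overlapped MLN CCR8- through replicate 1 of each group. The difference between MLN CCR8+ and MLN CCR8- was -3.29 (SE 1.02, unadjusted p = 0.00431, limma adjusted p = 0.077). It was -4.53 without MLN CCR8- replicate 1 (limma adjusted p = 0.00629) and -4.06 without MLN CCR8+ replicate 1 (limma adjusted p = 0.04). Heart CCR8+ stood 2.51 above MLN CCR8+ (SE 1.02, 95% interval 0.38 to 4.64, limma adjusted p = 0.129), which passed only without MLN CCR8- replicate 1 (limma adjusted p = 0.0422). Heart CCR8- and MLN CCR8- differed by -0.41 (95% interval -2.53 to 1.72, limma adjusted p = 0.882). Ccl5 is also a product of cytotoxic T and NK cells. The mean of 10 markers of these cells was 1.11 to 2.15 over all 16 libraries, with none of the 5 tested called in any of the 5 comparisons. Eomes was at 0.34 or less in each library, whereas Cd8b1 lay between 1.94 and 5.34 and Gzma reached 5.46 in MLN CCR8- replicate 2 and was listed at 0 in all MLN CCR8+ libraries. Nkg7, the most abundant of these markers, lay between 6.60 and 9.66. With this marker mean as a covariate the difference within MLN was -3.10 (limma adjusted p = 0.125).

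Xcl1 varied widely between the libraries of every group. Replicates 1 to 4 stood at 3.53, 7.49, 0.12 and 3.73 in heart CCR8- and at 0.87, 8.47, 0.31 and 7.84 in heart CCR8+. For MLN the values were 0, 0, 0 and 4.54 with CCR8- and 0, 5.85, 0 and 10.02 with CCR8+ Tregs. Every group held both low and high libraries, and the highest value was that of MLN CCR8+ replicate 4. The differences ranged from 0.40 to 2.83 with an SE of 2.16 (limma adjusted p = 0.548 to 0.952 over the 4 pairs of groups), so that a change of several log2 units in either direction would not have been resolved. The cytotoxic marker mean of MLN CCR8+ replicate 4 was 1.24. Xcl1 shares exon bases with Gm20743 on the other strand, so part of its reads is uncertain. Ccl22 was listed at 0 in 14 libraries and stood at 0.19 and 0.33 in heart CCR8+ replicates 1 and 2, and was not tested. Its receptor gene Ccr4 was at an FPKM of 1 or more in all 16 libraries.

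In count, 5 of the 8 ligands tested were called higher in heart CCR8+ than in MLN CCR8+, where 5.82% of all genes tested were, and 4 of 8 were called higher in heart CCR8- than in MLN CCR8-, where 2.95% were. None was called lower in either, where 3.97% and 1.61% of all genes were. The filter asked for 4 libraries at an FPKM of 1 or more, which Cxcl1 reached in 0 MLN libraries, Ccl1, Ccl3 and Ccl4 in 1 each, Cxcl2 in 2 and Xcl1 in 3. These ligands therefore entered the test only through the heart libraries, so a difference was built in, and nothing is read from the counts against those shares. They include all 4 ligands called in CCR8- Tregs and 4 of the 5 called in CCR8+ Tregs, with Cxcl10 as the exception. Cxcl1, Cxcl2, Cxcl10 and Ccl4 did not overlap between the CCR8+ groups, against 9.71% of genes in that direction, and Cxcl1, Cxcl2 and Ccl3 did not overlap between the CCR8- groups, against 5.24%. No ligand was called between CCR8+ and CCR8- Tregs of the heart, where 0.366% of genes were called in either direction, with 1 ligand (Ccl1) at an unadjusted p under 0.05. None was called within MLN, where 4.14% of genes were, with 2 ligands (Cxcl2 and Ccl5) at an unadjusted p under 0.05. The interaction of tissue and CCR8 called none in limma, against 0.405% of genes, with no ligand at an unadjusted p under 0.05. The CCR8+ and CCR8- tissue comparisons share no libraries, but they share the estimate of the spread.

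**Figure D4:**
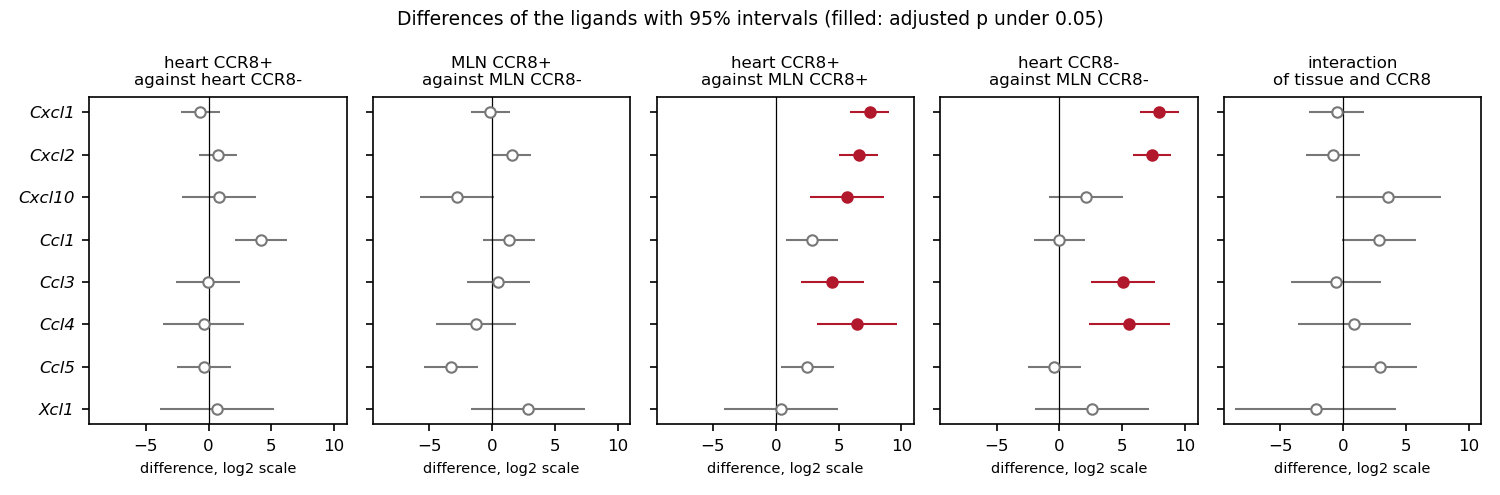
Difference of the group means on the log2 scale for the 8 ligands tested (rows) in the 5 comparisons (panels), with 95% intervals as horizontal lines and filled points where the limma adjusted p was under 0.05. Filled points stand only in the 2 comparisons of heart with MLN, from 4.51 to 7.96.

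Cxcl1 and Cxcl2 made up a larger part of the summed ligands in every heart library than in any MLN library. FPKM is per length, so levels can be set beside each other within a library. The 9 ligands summed to an FPKM of 968 to 1918 in heart CCR8- and 534 to 7018 in heart CCR8+ libraries. For MLN the sums ran from 48.0 to 2520 with CCR8- and from 87.2 to 1156 with CCR8+ Tregs. Ccl5 made up 83.0 to 100% of that sum in MLN CCR8- and 18.7 to 47.0% in heart CCR8-. In CCR8+ Tregs its share overlapped between the tissues, at 10.1 to 94.4% in MLN and 8.71 to 64.2% in heart. Cxcl1 and Cxcl2 together made up 13.7 to 60.5% in heart CCR8- and 15.4 to 40.2% in heart CCR8+, and at most 4.66% in any MLN library. Each of the 4 heart CCR8+ libraries had its own leading ligand, which was Cxcl2, Ccl4, Ccl5 and Cxcl1 in replicates 1 to 4. Ccl3 and Ccl4 made up 56.3% in heart CCR8+ replicate 2 and 0.362% in replicate 1.

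The genes whose pattern was most like each ligand's were found as the smallest root mean square difference of mean-centred log2 values over the 16 libraries. For Cxcl1 these were Wfdc17 (1.34), the fatty acid binding protein gene Fabp4 (1.34) and Cxcl2 (1.35), and for Cxcl2 they were Cxcl1, the metallothionein gene Mt2 (1.72) and the proteoglycan gene Dcn (1.79), a fibroblast marker. For Ccl3 they were the monocyte marker Cd14 (1.13), Ccl7 (1.14) and the Fc receptor gene Fcgr3 (1.21), and for Ccl4 they were Ccl7 (1.53), Cd14 (1.62) and Ccl2 (1.66). Cxcl10 was nearest to Dnajc12 (1.53), the chemokine receptor gene Cxcr6 (1.80) and Cd200r1 (1.94). For Ccl5 and Xcl1 the nearest genes were Fam98b at 1.32 and Tnfsf14 at 2.68. Among the 9 ligands, the pairs most alike were the neighbours Cxcl1 and Cxcl2 (1.35) and Ccl3 and Ccl4 (1.67). Of the genes nearest to Cxcl1, Wfdc17 was 0.52 in heart CCR8+ replicate 1 and 4.91 to 6.92 in the other heart libraries. Fabp4 was highest, at 12.11, in heart CCR8- replicate 3, the library with the highest endothelial mean. All these likenesses are descriptions over libraries that share tissue and sort.

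Outside these 9 ligands, a few monocyte and neutrophil attractants were also called higher in heart. Of 28 other chemokine ligands, 26 were in the table and 13 were tested. Of these 13, 3 were called higher in heart in both CCR8 fractions, where 5.82% (CCR8+) and 2.95% (CCR8-) of all genes tested were. Cxcl3, a further Cxcr2 ligand, was 6.26, 0.03, 4.20 and 3.33 in heart CCR8- and 6.61, 5.19, 6.63 and 6.18 in heart CCR8+, and at 0.31 or less in every MLN library. Its difference was 6.15 between the CCR8+ groups (limma adjusted p = 0.000118) and 3.38 between the CCR8- groups (limma adjusted p = 0.0308). Ccl2 and Ccl7, which bind Ccr2 and draw monocytes, were 0 and 0.34 in heart CCR8+ replicate 1 and 7.59 and 8.38 in replicate 2. They differed between heart and MLN by 4.91 and 4.99 in CCR8+ (limma adjusted p = 0.00666 and 0.00559) and by 4.98 and 5.52 in CCR8- Tregs (limma adjusted p = 0.0123 and 0.00495). Without heart CCR8+ replicate 2 the CCR8+ differences of Ccl2 and Ccl7 were 4.02 and 3.86 (limma adjusted p = 0.029 and 0.0221). Both calls were lost in each fraction with the macrophage mean as a covariate (limma adjusted p = 0.141 to 0.696), with which Cxcl3 was called in CCR8+ (6.45, limma adjusted p = 0.00258) and not in CCR8- Tregs (3.75, limma adjusted p = 0.223). The CCR8- call of Cxcl3 was also lost without heart CCR8- replicate 3 (3.13, limma adjusted p = 0.079). The other 10 were not called in any comparison. The median difference of the 13 was 1.78 in CCR8+ and 2.04 in CCR8- Tregs, beside -0.08 and -0.10 over all genes tested. Cxcl3, Ccl2 and Ccl7 reached an FPKM of 1 in 0 MLN libraries, so they entered the test only through the heart libraries. A difference was thus built in, and nothing is read from this count or these medians against those of all genes.

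The receptors of the ligands were read in the same cells. Of 10 receptor genes 6 were tested, and Ccr8, the gene of the sorted protein, was called in all 4 pairs of groups. For the heart it stood at 10.01 ± 0.30 (SD, n = 4) with CCR8+ and 8.45 ± 0.24 with CCR8- Tregs, and for MLN at 7.78 ± 0.40 and 4.60 ± 0.66. Within the heart the difference was 1.55 (limma adjusted p = 0.0234), and 1.64 without heart CCR8+ replicate 2 (limma adjusted p = 0.0544). Each heart CCR8- library thus held more Ccr8 mRNA than each MLN CCR8+ library, which was not among the comparisons tested. Ccr3, a receptor of Ccl5, was 5.76 ± 0.63 (SD, n = 4) in heart CCR8+. In MLN it ran from 1.75 to 5.10 without CCR8 and was listed at 0 in all MLN CCR8+ libraries. Within MLN it was called lower with CCR8 than without (-3.29, limma adjusted p = 0.0337), higher in heart CCR8+ than in MLN CCR8+ (5.76, limma adjusted p = 0.00021) and in the interaction (5.88, limma adjusted p = 0.0321). The interaction was 5.64 without heart CCR8+ replicate 2 (limma adjusted p = 0.0874). Cxcr3, the receptor of Cxcl10, was 8.00 ± 0.49 (SD, n = 4) in MLN CCR8- and 5.87 ± 0.44 in MLN CCR8+ (difference -2.13, limma adjusted p = 0.00451). Cxcr2, the receptor of Cxcl1 and Cxcl2, stayed between 0.77 and 2.24 and was not called in any comparison. Cxcr1 and the scavenger receptor gene Ackr2 were listed at 0 in all 16 libraries.

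**Figure D5:**
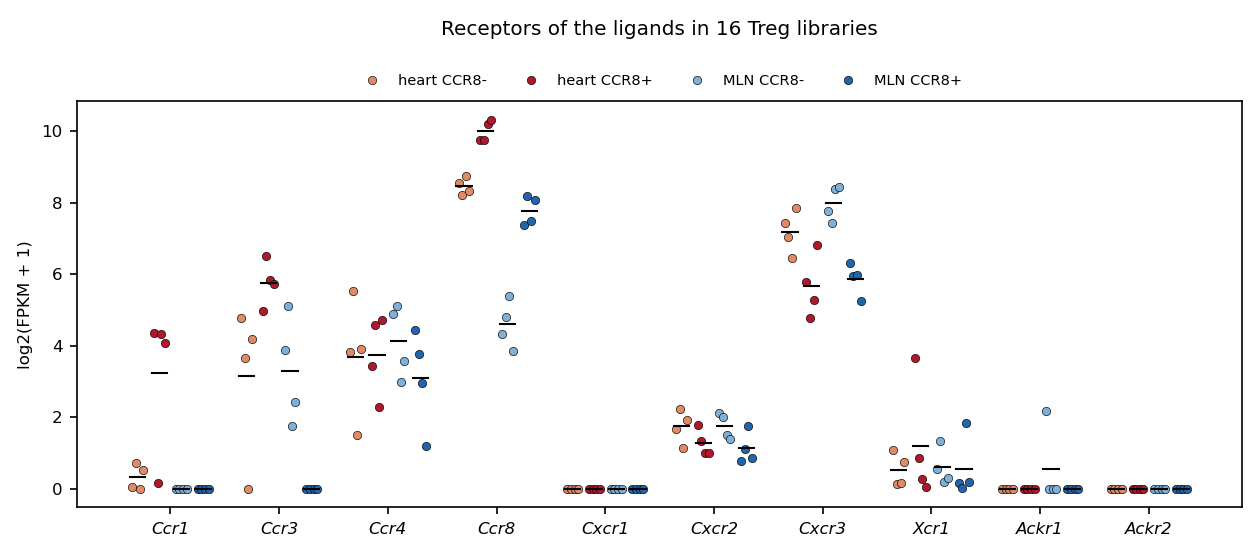
log2(FPKM + 1) of 10 receptor genes of the ligands in the 16 libraries, with a point for each library coloured by group and the group mean as a horizontal line. Ccr8 lies highest in heart CCR8+ (mean 10.01), and Ccr3 is listed at 0 in all MLN CCR8+ libraries.

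Calls of target genes of the pathways known to induce these ligands differed in direction in CCR8+ Tregs. In CCR8- Tregs only NF-kB targets were called. Of 14 NF-kB target genes other than the 9 ligands, all 14 were tested, and 6 were called higher in heart in each CCR8 fraction and none lower. Of all genes tested, 5.82% (CCR8+) and 2.95% (CCR8-) were called higher, and 3.97% and 1.61% lower. In CCR8+ Tregs the 6 were Nfkbia, Nfkbiz, Tnfaip3, Rel, Il1b and Il6, and in CCR8- Tregs Traf1 stood in place of Il1b. Il1b reached an FPKM of 1 in 0 MLN libraries and Il6 in 1, of MLN CCR8+. These 2 genes entered the test only through the heart libraries, so a difference was built in for them. Tnfaip3, an inhibitor of the pathway, differed by 3.60 in CCR8+ (limma adjusted p = 0.000709) and 2.48 in CCR8- Tregs (limma adjusted p = 0.0235), and Rel, an NF-kB subunit of lymphocytes, by 2.55 (limma adjusted p = 0.000236) and 3.12 (limma adjusted p = 9.18e-05). Nfkbiz was 5.96, 6.99, 6.44 and 6.56 in heart CCR8+ and 3.59, 4.49, 3.36 and 4.99 in MLN CCR8+, with no overlap (difference 2.38, limma adjusted p = 0.000731). Il1b, a product of myeloid cells, was 0.63, 9.20, 4.31 and 5.56 in heart CCR8+ and differed by 4.93 (limma adjusted p = 0.0241). Without replicate 2 of that group it differed by 3.50 (limma adjusted p = 0.09), and Il6 by 3.02 in place of 2.92 (limma adjusted p = 0.0681 and 0.0395). In heart CCR8- replicate 3 Il6 stood at 8.45, against 3.12 to 3.58 in the other libraries of its group. Its CCR8- difference was 4.33 with that library (limma adjusted p = 0.00647) and 3.04 without it (limma adjusted p = 0.00338). With the macrophage mean as a covariate 4 of the 6 calls in CCR8+ (Nfkbia, Nfkbiz, Tnfaip3 and Rel) and 2 of the 6 in CCR8- Tregs (Nfkbia and Rel) held. The median difference of the 14 was 1.12 in CCR8+ and 1.82 in CCR8- Tregs. Of 12 interferon gamma target genes 11 were tested, and none was called higher in heart. In CCR8- Tregs none was called lower either, and the median difference was -0.21. The 3 called lower in heart CCR8+ than in MLN CCR8+ were the peptide transporter gene Tap1 (-2.18, limma adjusted p = 0.00522), the immunoproteasome gene Psmb9 (-1.42, limma adjusted p = 0.000944) and the GTPase gene Ifi47 (-1.28, limma adjusted p = 0.0303), and the median of the 11 was -0.50. Ifi47 was not called without heart CCR8+ replicate 2 (-1.16, limma adjusted p = 0.0922). With the macrophage mean as a covariate Psmb9 was called (-1.19, limma adjusted p = 0.0372). Tap1 (-2.06, limma adjusted p = 0.0698) and Ifi47 (-1.24, limma adjusted p = 0.172) were not. No gene of either list was called between CCR8+ and CCR8- Tregs within a tissue.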

How the data were processed

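Per the labels' protocols, about 100 Tregs per library were double-sorted by magnetic beads and flow cytometry, and a NEBNext Ultra kit was used. HISAT2 2.0.5 and featureCounts 1.5.0-p3 with mm10 (GRCm38) are named in the submitters' processing notes. The authors deposited 1 table of 19219 genes with columns named FPKM. Its values were taken as log2(FPKM + 1) with quantile normalization by the authors, since all libraries reached the same maximum (14.9) and summed to 1007109 to 1007347 once the log was undone. No header or label states those steps, and TPM would give such sums too, so the unit remains unsettled. The design had foreseen values without a log, which leads to the same test. Reads per library, and so depth, are unknown. None of 16 housekeeping genes was at 0 in any library.

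Without 24 date-like entries, 19195 genes remained. Genes reaching an FPKM of 1 in 4 or more libraries entered the test (10369). Limma 3.58.1 in R 4.3.3 fitted a mean for each of the 4 groups to all 16 libraries, with a variance trend and 12 residual and 7.01 prior degrees of freedom, and was tested on simulated data. Loci come from GENCODE M21 and promoters from RefSeq. The ligands, gene lists and rules were chosen with earlier results of these data known. Beside the ligands, the rule named up to 4 called genes per pathway list and comparison by size of difference and the 3 nearest genes per ligand, not all of which are reported here. Other receptors, Nfkbia, Traf1 and marker genes were named to describe their list. Alternatives were another pseudocount (0.1), other filters (none, or an FPKM of 5), median-of-ratios factors, no variance trend, a fit to the compared groups alone, array weights, a replicate block, macrophage and fibroblast covariates and the removal of each library. Endothelial and cytotoxic covariates, the joint removal of 2 heart libraries and the repeats for listed genes without those libraries or with the macrophage covariate were chosen after seeing the data.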

Additional observations from a re-analysis of the deposited data

Results flagged for a closer look

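In 124 sets of 4 libraries (a ligand, a listed gene or a marker mean in a group), the highest or lowest library was compared with the spread of the other libraries of its group, and 18 stood apart. Chance gives about 1 in 20 such sets, and sets with 3 libraries at 0 stand apart by construction. None of these was weighed for a cause.

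Among the ligands, Ccl4 in heart CCR8- replicate 1 was low at 4.75. In MLN CCR8- single libraries were high for Ccl4 (5.40), Xcl1 (4.54) and Cxcl2 (0.277), and Ccl5 was low at 5.61 in replicate 1. In MLN CCR8+ single libraries were high for Ccl1 (5.22), Ccl3 (1.98) and Ccl4 (0.144).

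Among the listed genes, Il6 was high in heart CCR8- replicate 3 (8.45), the library with the highest endothelial mean, and in MLN CCR8+ replicate 1 (1.65). In MLN CCR8- single libraries were high for Nfkbiz (5.36), Ccl2 (0.365), Cxcl3 (0.311) and Il1b (0.235).

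Among the marker means, the cardiomyocyte mean stood apart in MLN CCR8- at 0.335 and in MLN CCR8+ at 0.151. In MLN CCR8+ the macrophage and monocyte mean stood apart at 1.28 in replicate 3, and the mast cell and basophil mean at 0.365.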

How the results depend on the processing

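For single ligands under the alternatives, 1100 values kept their direction and their side of the threshold, 41 lost a call, 10 gained one and 1 reversed, the Ccl4 difference of CCR8- Tregs with the fibroblast covariate (-0.83). Cxcl1 and Cxcl2 kept their calls in every setting run between the CCR8+ groups, and in all but the fibroblast covariate between the CCR8- groups. Ligands called between the CCR8+ groups were 5, and 6 with 0.1 added or array weights (Ccl1 in addition), 2 with no filter, 2 with the macrophage and 2 with the fibroblast covariate. Between the CCR8- groups they were 4, and 2 with no filter, 2 with the macrophage, 0 with the fibroblast and 2 with the endothelial covariate. The cause was not tested.

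All genes called in heart CCR8+ against CCR8- were 38, and 13 with no filter, 8 with no variance trend, 5 with only the groups compared, 20 with the replicate block, 3 with the fibroblast covariate and 7 without the 2 heart libraries. Within MLN they were 429, and 245 with no trend and 169 with only the groups compared. Between the CCR8+ groups they were 1015, and 403 with the macrophage and 162 with the fibroblast covariate. Between the CCR8- groups they were 473, and 305 with no filter, 304 with no trend, 204 with only the groups compared, 43 with the macrophage, 2 with the fibroblast and 243 with the endothelial covariate. The interaction had 42, and 18 with no filter, 15 with no trend and 21 with the fibroblast covariate. Deviations of libraries with equal replicate numbers correlated by -0.0933 to 0.0589, which does not settle whether these numbers pair the libraries. The labels state no pairing, so the block is given for this count only.

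Leaving out each library gave 0 to 1, 0 to 2, 3 to 6, 2 to 4 and 0 to 0 ligands called in heart, within MLN, between the CCR8+ groups, between the CCR8- groups and in the interaction, and 3 to 51, 275 to 471, 692 to 1114, 268 to 483 and 29 to 62 genes. Counts moved by over 1.5 times in heart without CCR8- replicate 2 (11) or CCR8+ replicates 1 (4), 2 (8) or 3 (3), within MLN without CCR8+ replicates 1 (282) or 4 (275), and between the CCR8- groups without MLN CCR8- replicates 3 (287) or 4 (268). Ligand counts did so without MLN CCR8+ replicate 4 (3) between the CCR8+ groups, and without heart CCR8- replicates 2 or 4 or MLN CCR8- replicate 4 (2) between the CCR8- groups. Median-of-ratios factors moved the share of higher calls from 49.4 to 61.1% within MLN and from 64.7 to 74.7% between the CCR8- groups. Depth is unknown, so a value of 0 cannot be told apart from a level below detection.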
